A study of Mus musculus with 12 samples.

Results

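Cytokine receptors signal through JAK kinases and STAT transcription factors, and the cell switches the signal off again with a set of inhibitors. The SOCS proteins and their founding relative CIS (gene Cish) bind phosphorylated receptors or JAKs and recruit a ubiquitin ligase, and many of them are themselves induced by STATs, which closes a negative feedback loop. USP18 removes the ubiquitin-like protein ISG15 from its targets, binds the type I interferon (IFN) receptor and restrains its signalling, and its gene is a classical IFN-stimulated gene (ISG). The phosphatases PTPN2 (TC-PTP) and PTPN6 (SHP-1) dephosphorylate JAKs and STATs, and PIAS1 is a SUMO ligase that binds STATs. TYK2 is the JAK that serves the receptors for type I IFN, IL-12, IL-23 and IL-10 among others.

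The genes described here were all rows of the tumour count table for the SOCS family (Socs1 to Socs7 and Cish, 8 genes), together with Usp18, Ptpn2, Ptpn6 and Pias1. They were chosen by name, which gave 12 genes of 54232 in the table, 23707 of which had at least 1 count. All 12 passed the filter on low counts, which asked for a mean normalized count of at least 10 and left 13279 genes for testing.

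The study asked what the loss of TYK2, or of its kinase activity alone, does to the transcriptomes of immune cells that had entered a tumour. MC38 cells, a mouse colon adenocarcinoma line, were transplanted subcutaneously into C57BL/6N mice that were wild type (WT), Tyk2-/- (labelled TYK2KO, here KO) or carried the kinase-inactive Tyk2 K923E allele (labelled TYK2KE, here KE). Tumours were taken 8 to 10 days later from sex- and age-matched mice, with no further treatment, and CD45+ cells were sorted into CD3ε- NK1.1+ natural killer (NK) cells or CD3ε+ CD8a+ T cells, 300 cells per library. The 6 groups held 2 libraries each, 12 in all. Both Tyk2 alleles are germline alleles, so TYK2 was altered in the whole host as well as in the sorted cells, while the transplanted tumour cells were a common line. Nothing in the labels says whether the 2 libraries of a group came from separate mice, and p-values therefore measure only the spread between these libraries.

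Total counts ran from 10378761 to 14732882 per library. Values below are counts per 1000000 (CPM), scaled by TMM, a correction for library composition, so that 3 counts were worth 0.219 to 0.275 CPM. Spread between replicates was wide, with a common biological coefficient of variation of 109%. The sort markers separated NK from CD8 libraries. Klrb1c (NK1.1) was at 1062 CPM or above in every NK library and at 5.08 or below in every CD8 library, and Cd8a was at 2841 or above in CD8 and at 4.51 or below in NK libraries. Cd3e was at 586 or above in CD8 libraries. NK WT libraries held 8.93 and 7.11 CPM of it, NK KO libraries 9.83 and 51.5 and both NK KE libraries 30.7, so that it was higher in the mutants without overlap (pooled log2 fold change 1.93, SE 0.57, FDR 0.338 by edgeR, adjusted p = 0.00539 by DESeq2). Summed T cell markers in NK libraries were 42.5 and 99.9 CPM for WT, 48.8 and 294 for KO and 170 and 317 for KE, and their part in the NK genotype differences was not tested. No Tyk2 comparison between genotypes was called by edgeR, and the level was not lower in KO. Tyk2 stood at 60.6 and 68.4 CPM in NK WT, 55.7 and 104 in NK KO, 119 and 81.5 in NK KE, 48.6 and 86.6 in CD8 WT and 62.2 and 74.2 in CD8 KO libraries, with 59.5 and 47.0 in CD8 KE. Both NK KE values were above both NK WT values (log2 fold change 0.64, SE 0.49, FDR 0.899). A count over the whole gene does not tell a shortened or altered transcript from an intact one. KO and KE below therefore stand for libraries labelled so, and every direction rests on those labels. The study's methods name one Tyk2-null allele for the tumour experiments and its sample list abbreviates the KO libraries in a way that may point to another, so which null allele they carry is in doubt. The summed level of 12 myeloid markers (Lyz2, C1qa, Csf1r and others) was 9403 and 8674 CPM in the NK WT libraries and 5316 in NK KO 1, against 24.3 in NK KO 2, 61.6 and 261 in the NK KE and 50.7 to 400 in the CD8 libraries. Neutrophil markers summed to at most 27.4 CPM. S100a8 and S100a9 were at 0 in all groups, while Mmp8 was at 21.1 CPM in NK WT 1 and 21.2 in CD8 WT 1. B cell markers summed to at most 32.3 CPM, all of it Cd79b in NK WT 2, with Cd79a at 0. Tumour epithelial markers summed to at most 17.2 CPM, all of it Epcam in CD8 KE 2. Krt8 and Krt19 were at 0, and Krt18 reached 7.31 CPM in CD8 KO 1. Stromal markers reached 263 CPM in NK libraries, almost all of it from Pecam1. In bulk libraries, fewer cells that express a gene and less RNA per cell cannot be told apart.

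Usp18, the ISG15 protease, was the regulator with the largest genotype difference in both cell types. NK WT libraries held 280 and 275 CPM, NK KO libraries 7.82 and 69.0 and NK KE libraries 24.6 and 17.4. Among the CD8 libraries, WT held 318 and 242 CPM, KO 1.38 and 12.8 and KE 4.42 and 0.147. All 8 mutant libraries lay below all 4 WT libraries, with 69.0 CPM as the highest mutant value and 242 as the lowest WT value. Behind these values were 3321 to 4260 counts in the WT libraries, 101 to 939 in NK mutants and 2 to 153 in CD8 mutants, where CD8 KE 2 with its 2 counts was below the 3 counts taken as the detection floor.

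By edgeR's quasi-likelihood test across all genes, the log2 fold change of Usp18 in CD8 T cells was -5.31 (SE 1.47, FDR 0.721) for KO against WT (KOvsWT) and -6.94 (SE 1.6, FDR 0.274) for KE against WT (KEvsWT). In NK cells it was -2.85 (SE 1.31, FDR 0.765) for KOvsWT and -3.72 (SE 1.36, FDR 0.731) for KEvsWT. For the pooled mutants (the mean of KO and KE) against WT it was -6.13 (SE 1.14, FDR 0.0862) in CD8 and -3.29 (SE 1.03, FDR 0.358) in NK cells, which is 1.43% and 10.2% of the WT level. None of these passed the FDR of 0.05. DESeq2 gave nearly the same fold changes, and its adjusted p in NK cells was 0.207 for KOvsWT and 0.0354 for KEvsWT, against 0.000468 and 4.51e-07 for CD8 libraries. Usp18 was thus called by DESeq2 in 3 of these 4 comparisons and in both comparisons of the pooled mutants (adjusted p = 0.0262 in NK and 2.39e-07 in CD8), but in none by edgeR.

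Myeloid marker sums moved with genotype in the NK libraries. Both NK WT libraries had the highest sums, so within NK cells WT and a high sum cannot be told apart. The part of myeloid RNA in the NK difference of Usp18 was not tested. NK KO 1 held 5316 CPM of myeloid markers and 7.82 CPM of Usp18, the lowest level among the 6 NK libraries. Its markers were not those of NK WT: Lyz2 made up 3342 CPM of the sum. Csf1r was at 0.155 CPM against 291 and 300 in NK WT, and Mrc1 at 0 against 38.4 and 62.4. Among the CD8 libraries, WT held 192 and 179 CPM of these markers and the mutants 50.7 to 400 CPM. With the summed marker level as a covariate, chosen as an alternative setting, the log2 fold changes were -5.45 (FDR 1) for KOvsWT and -6.22 (FDR 0.635) for KEvsWT in NK cells. The difference between the NK and CD8 effects of the pooled mutants was 2.84 on the log2 scale (SE 1.54, FDR 0.924), and was not past the threshold. With the covariate the pooled effects were -5.84 (FDR 0.869) in NK and -6.25 (FDR 0.0936) in CD8 T cells, and their difference was 0.42 (SE 1.66, FDR 1). KO and KE were not told apart either, at a log2 fold change of 1.64 (SE 1.30, FDR 1) for KO against KE (KOvsKE) in CD8 T cells, a sign that rested on the library CD8 KO 2 and became -0.73 without it.

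**Figure D1:**
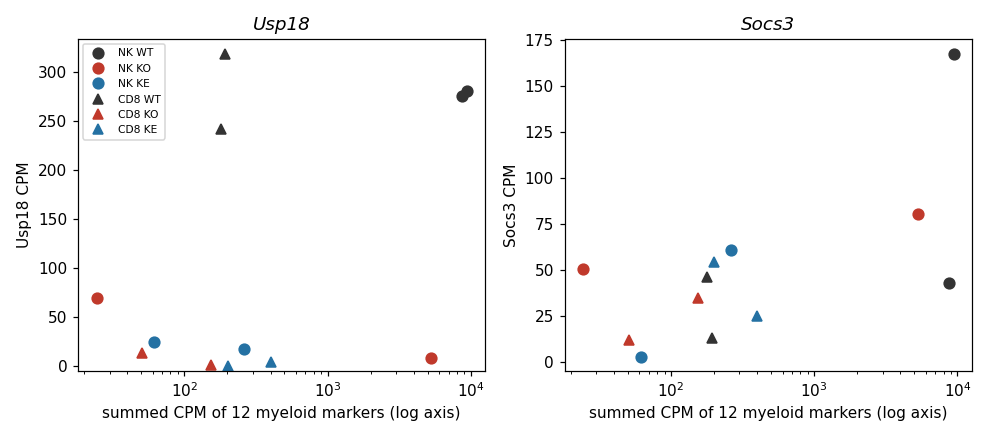
Usp18 (left) and Socs3 (right) CPM of each of the 12 libraries on a linear axis against the summed CPM of 12 myeloid markers on a log axis, with circles for NK and triangles for CD8 libraries. The 4 WT libraries hold 242 to 318 CPM of Usp18 at low and at high marker sums, while Socs3 is highest, at 167 CPM, in an NK WT library with a high sum.

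USP18 acts on ISG15 conjugates, so the ISG15 pathway itself was read beside it: Isg15, the E1 enzyme Uba7, the E2 enzyme Ube2l6 and the E3 ligase Herc6. All 4 of the 4 genes had negative fold changes in each of the 4 comparisons of a mutant with WT, and none was called by edgeR. Their median log2 fold change in NK cells was -1.22 for KOvsWT and -1.32 for KEvsWT, and the CD8 medians were -2.15 and -3.15, where the median of all genes was at most 0.0120 away from 0. Herc6 stood at 96.0 and 87.9 CPM in CD8 WT, at 2.92 and 7.26 in CD8 KO and at 17.8 and 7.58 in CD8 KE, so that the WT and mutant libraries did not overlap. Its log2 fold change for the pooled mutants in CD8 T cells was -3.51 (SE 0.81, FDR 0.242), and DESeq2 called it (adjusted p = 0.00117). Ube2l6 stood at 115 and 120 CPM in CD8 WT and at 8.32 to 30.5 in the 4 mutant CD8 libraries, with a log2 fold change of -2.98 (SE 1.34, FDR 0.724). In NK cells the 2 WT libraries differed for all 4 genes. Ube2l6 was at 22.4 and 74.7 CPM in WT, above all 4 mutant NK libraries (0.221 to 20.4). Isg15 was at 18.8 CPM in NK WT 1 and at 0.229 in NK WT 2, the latter below all 4 mutant NK libraries (1.93 to 6.66), and Herc6 was at 42.4 and 11.2 in WT against 7.72 to 20.4. Uba7 was at 254 and 55.7 CPM in WT and at 48.2 to 89.0 in the mutants.

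SOCS1 blocks JAK kinases directly and is the SOCS protein best known for limiting IFN signals. Socs1 levels in NK cells varied little: 77.7 and 69.2 CPM for WT, 79.2 and 71.8 for KO and 57.9 and 84.1 for KE. CD8 WT libraries held 31.9 and 27.5 CPM, CD8 KO 48.8 and 28.6 and CD8 KE 58.1 and 79.0. The 2 CD8 KE libraries were thus above all other CD8 libraries and within the range of the NK libraries. The log2 fold change of CD8 KEvsWT was 1.21 (SE 0.49, FDR 0.792) and was not called by DESeq2 either (adjusted p = 0.322). The level in CD8 T cells lay below the lowest NK value in all WT and KO libraries.

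Cish encodes CIS, which limits IL-2 and IL-15 signalling through STAT5 and is a known checkpoint of NK cells and CD8 T cells. It stood at 53.3 and 118 CPM in NK WT, at 106 and 200 in NK KO and at 117 and 174 in NK KE. CD8 WT libraries held 246 and 239 CPM, CD8 KO libraries 100 and 200 and CD8 KE libraries 187 and 323. Mutant and WT libraries overlapped in both cell types, and no Cish comparison between genotypes reached an unadjusted p of 0.05. The difference between the NK and CD8 effects of the pooled mutants was 1.12 (SE 0.61, FDR 0.930). With the myeloid covariate it was 0.48 (FDR 1), and the pooled NK effect was 0.11 in place of 0.81.

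SOCS3 acts on receptors of the gp130 family and on the G-CSF receptor, and Socs3 is expressed in myeloid cells as well as in lymphocytes. Its NK values were 167 and 42.5 CPM for WT, 80.1 and 50.6 for KO and 2.57 and 60.9 for KE. Its CD8 values were 12.6 and 46.3 CPM for WT, 34.5 and 11.6 for KO and 24.9 and 54.0 for KE. The highest NK values, 167 and 80.1 CPM, came from NK WT 1 and NK KO 1, both among the 3 libraries with over 1000 CPM of myeloid markers, while NK WT 2, also among them, had 42.5. The log2 fold change was -1.72 (SE 1.26, FDR 0.878) for KEvsWT and 1.04 (SE 1.24, FDR 1) for KOvsKE in NK cells. For the pooled mutants in NK cells it was -1.20 (SE 1.02, FDR 0.884), which turned to 0.10 without NK WT 1. With the myeloid marker sum as a covariate, the log2 fold change was -0.73 for NK KEvsWT, -0.26 for the pooled NK mutants and 0.76 for NK against CD8 in WT, each with an FDR of 0.98 or more.

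SOCS2 limits growth hormone and STAT5 signals. Socs2 stood at 22.1 and 24.5 CPM in NK WT, 12.9 and 8.46 in NK KO and 36.2 and 20.6 in NK KE, so that the NK KO libraries were the lowest of the NK libraries. The log2 fold change was -1.13 (SE 1.33, FDR 1) for KOvsWT and -1.41 (SE 1.34, FDR 1) for KOvsKE. Among CD8 libraries Socs2 ran from 1.42 to 23.0 CPM, and its lowest library, CD8 KE 1, was 14.8-fold below its own replicate.

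Socs4 to Socs7 encode SOCS proteins that have been tied more to receptor tyrosine kinases and insulin signalling than to cytokine receptors. Socs4 was the only one of them with an unadjusted p below 0.05 in any comparison. It stood at 52.8 and 75.3 CPM in CD8 WT, at 36.2 and 9.68 in CD8 KO and at 14.5 and 12.4 in CD8 KE, so the mutant and WT libraries did not overlap. In NK cells it ran from 34.8 to 62.6 CPM with overlapping genotypes. The log2 fold change in CD8 T cells was -1.48 (SE 0.74, FDR 0.887) for KOvsWT and -2.25 (SE 0.76, FDR 0.737) for KEvsWT by edgeR. For the pooled mutants it was -1.86 (SE 0.60, FDR 0.624). DESeq2 did not call Socs4 (adjusted p = 0.0746 for KEvsWT and 0.106 for the pooled mutants). The difference between the NK and CD8 effects was 1.82 (SE 0.89, FDR 0.895).

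Socs5, Socs6 and Socs7 were sparse and differed widely between replicates. Socs5 stood at 51.2 and 0.809 CPM in the 2 NK KO libraries and at 11.7 and 0.438 in the 2 CD8 WT libraries. Socs7 had 0 counts in NK KE 1 and 9.65 CPM in NK KE 2. Over Socs2 to Socs7, 17 of 36 pairs of replicates were more than 2-fold apart, against 25 of 72 over all 12 genes, where the median was 1.72-fold. Socs6 was higher in the mutant CD8 libraries, all of them above the 1.34 and 8.83 CPM of WT and the highest at 20.0, and Socs7 was lower, at 2.38 to 15.1 against 23.3 and 22.2. Their log2 fold changes for the pooled mutants were 1.46 (SE 1.32, FDR 0.935) and -1.21 (SE 1.54, FDR 1.00). Socs5 differed by 1.73 (SE 1.77, FDR 0.978) in the same comparison and by 2.59 (SE 1.99, FDR 0.951) for CD8 KOvsWT alone. In NK KEvsWT the log2 fold change of Socs7 was -2.55 (SE 1.95, FDR 0.899) and that of Socs5 -1.19 (SE 1.91, FDR 1). For NK KOvsKE they were 2.42 and 1.85 (SE 1.94 for each, FDR 1), that of Socs5 in CD8 KOvsKE was 1.73 (SE 1.93, FDR 1) and that of Socs7 for the pooled NK mutants -1.34 (SE 1.54, FDR 0.983). Socs5 in NK KOvsKE was -3.14 without NK KO 1. With the myeloid covariate Socs5 turned to 3.28 (FDR 0.852) in NK KEvsWT and to -0.84 (FDR 1) in NK KOvsKE, and over the 6 NK libraries its log2 CPM and the log2 marker sum had a Pearson r of 0.88, given as a description. Taken singly, the CD8 mutants gave Socs6 log2 fold changes of 1.61 for KO and 1.31 for KE, and Socs7 values of -1.38 and -1.04, with an SE of 1.44 to 1.88. Differences between the NK and CD8 effects were -2.00 for Socs5 (SE 2.33), -1.85 for Socs6 (SE 1.76) and -1.24 for Socs3 (SE 1.51), each with an FDR of 1.00.

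PTPN6 is the main SH2 phosphatase of blood cells, and Ptpn6 had the highest CPM of the 12 genes in every library but CD8 WT 1 and NK KO 2, at 147 to 702 CPM in NK and 298 to 841 in CD8 T cells. Ptpn2, whose protein dephosphorylates JAK1, JAK3 and STATs, stood at 32.5 to 232 CPM in NK and 78.9 to 177 in CD8 T cells. NK KO 2 was the lowest library for Ptpn2 and for Ptpn6, and Ptpn6 was at 445 CPM in NK KO 1. The log2 fold changes of NK KOvsKE were -1.21 for Ptpn2 (SE 0.63, FDR 1) and -1.05 for Ptpn6 (SE 0.51, FDR 1). Pias1 ran from 71.9 to 177 CPM in NK and 38.1 to 111 in CD8 T cells. Without a covariate, no comparison of a mutant with WT reached an absolute log2 fold change of 1 for Ptpn2, Ptpn6 or Pias1. With the myeloid marker sum as a covariate, NK KEvsWT was at 1.68 for Ptpn6 (SE 0.57, FDR 0.678), 1.69 for Ptpn2 (SE 0.84, FDR 0.788) and 1.10 for Pias1 (SE 0.71, FDR 0.852).

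**Figure D2:**
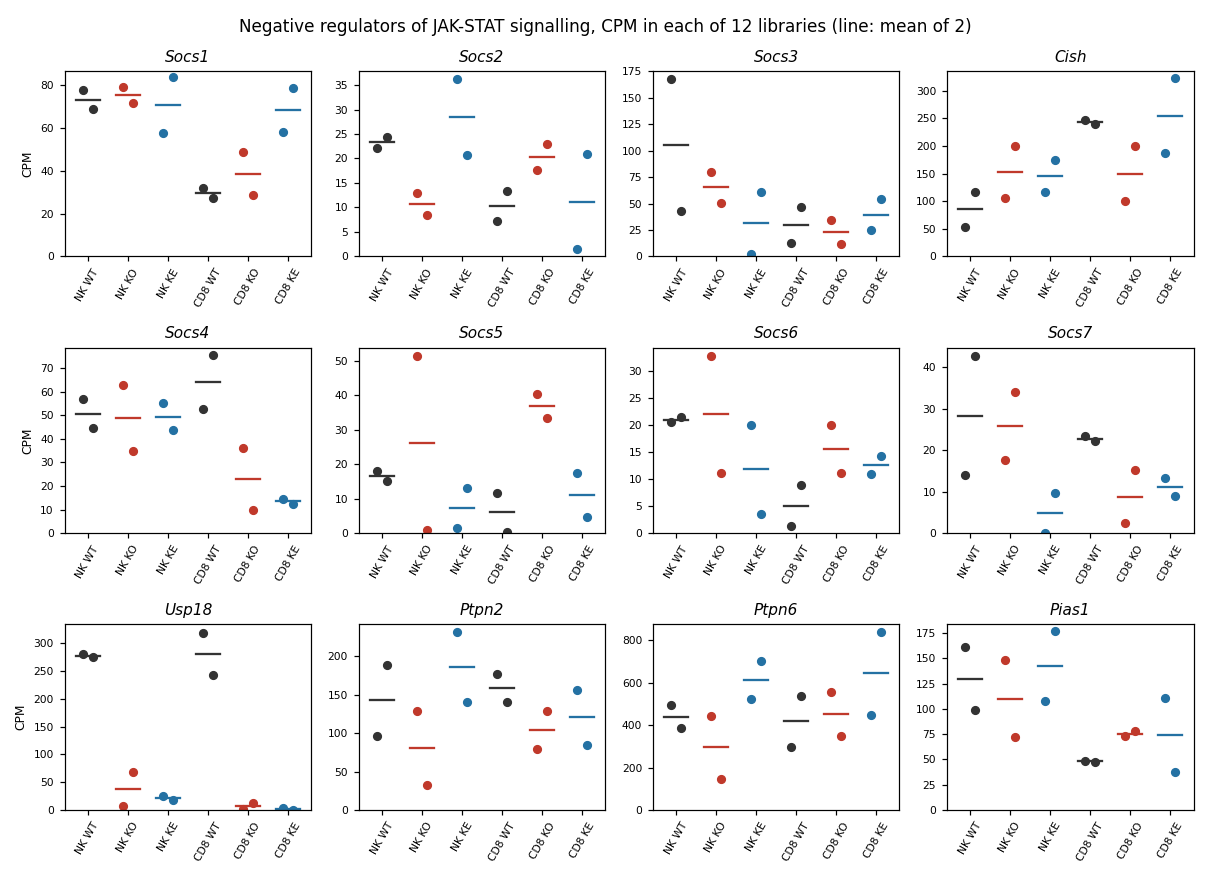
CPM (linear axis, own scale per gene) of the 12 regulators in each library, with points for the 2 libraries of a group and a line for their mean. Usp18 is above 242 CPM in the 4 WT libraries and at or below 69.0 in the 8 mutant libraries, whereas for most other genes the points of a group are as far apart as the groups.

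Counted over all 12 genes, no regulator was called by edgeR in any comparison between genotypes, at FDR below 0.05 and a log2 fold change of 1 or more in size. The number to read this against is small: edgeR called 0% of all genes in NK KOvsWT, NK KEvsWT, NK KOvsKE and CD8 KOvsKE, 0.0527% in CD8 KOvsWT and 0.0828% in CD8 KEvsWT. For the pooled mutants it called 0.0301% in NK and 0.211% in CD8 T cells, and for the difference between the cell types 0.0151%. DESeq2 called 1 of 12 regulators, Usp18, in each of NK KEvsWT (2.93% of all genes), CD8 KOvsWT (1.76%), CD8 KEvsWT (2.49%), the pooled mutants in NK (3.37%) and the pooled mutants in CD8 (2.46%). It called 0 of 12 in NK KOvsWT (2.85%), NK KOvsKE (1.54%), CD8 KOvsKE (1.18%) and the difference between cell types (2.03%).

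At an unadjusted edgeR p below 0.05 there was 1 of 12 regulators in NK KEvsWT (6.02% of all genes), 1 in CD8 KOvsWT (4.79%) and 3 in CD8 KEvsWT (5.56%). These were Usp18 in all 3 and, in CD8 KEvsWT, also Socs1 and Socs4. The pooled mutants gave 1 of 12 in NK (9.01%) and 2 in CD8 (6.75%). There were 0 of 12 in NK KOvsWT (6.30%), NK KOvsKE (3.81%), CD8 KOvsKE (3.63%) and the difference between cell types (5.69%). The 4 mutant libraries did not overlap with the 2 WT libraries for 1 of 12 regulators in NK cells (Usp18, 17.8% of all genes) and for 4 in CD8 T cells (Usp18, Socs4 and Socs7 lower and Socs6 higher, 14.3%). In each of these genotype comparisons except CD8 KEvsWT and the pooled CD8 mutants, the count at this p was that of Usp18 alone or 0.

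The median log2 fold change over the 12 regulators was -0.18 for KOvsWT and -0.04 for KEvsWT among NK libraries, and -0.12 and 0.27 among CD8 libraries, beside -0.01, 0, 0 and 0 for all genes. In NK cells 11 of 12 regulators had a negative fold change for the pooled mutants, with a median of -0.25 beside -0.05 for all genes, and Cish was the exception at 0.81. The NK tally turned with the myeloid covariate, under which 4 of 12 were negative and 8 positive, with a median of 0.26. For the pooled mutants in CD8 T cells 5 of 12 were negative and 7 positive without the covariate, with a median of 0.20 beside 0 for all genes. These contrasts share their WT libraries, and the values above are given for each on its own.

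**Figure D3:**
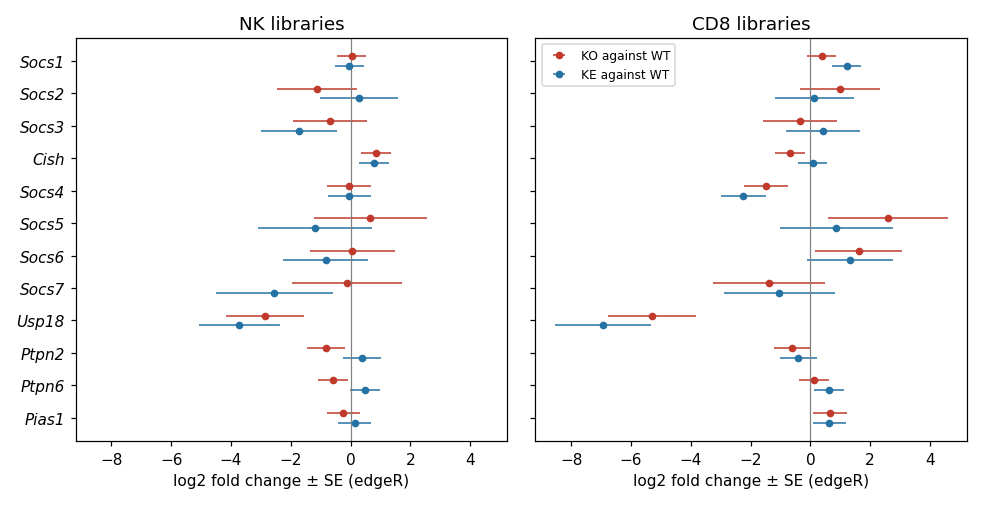
Log2 fold change of each regulator against WT (points) with its SE (bars) from edgeR, for KO and KE in NK (left) and CD8 (right) libraries. Usp18 lies lowest in both panels, at -2.85 and -3.72 in NK and -5.31 and -6.94 in CD8, and the bars of Socs5 and Socs7 are the widest.

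Within each cell type the regulators spanned a wide range once levels were divided by exon length (RPKM, CPM per kilobase of exon). In both WT groups Ptpn6 and Usp18 were highest, at 169 ± 28.4 and 157 ± 2.00 RPKM in NK and 160 ± 65.2 and 158 ± 30.2 in CD8 T cells (SD, n = 2), and their libraries overlapped. In NK WT the order went on with Ptpn2 (47.1), Socs3 (41.1), Socs1 (25.2), Cish (23.4) and Pias1 (20.3), none of which differed from its neighbour beyond the spread of the libraries. Socs2 (8.63) and Socs4 (7.35) followed, and Socs7, Socs5 and Socs6 were lowest, at 4.02, 3.56 and 3.42 RPKM. In CD8 WT Cish came next at 66.6 ± 1.41 RPKM, above Ptpn2 at 52.5 ± 8.49 with no overlap, and Socs3, Socs1, Socs4 and Pias1 followed at 11.5, 10.2, 9.32 and 7.52. Socs6 was lowest at 0.829. In NK KE and CD8 KE, by contrast, the mean Usp18 level was 11.9 and 1.29 RPKM.

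NK and CD8 T cells differed in Socs1, Cish and Pias1 by amounts that did not pass the FDR. In WT, Socs1 was at 77.7 and 69.2 CPM in NK against 31.9 and 27.5 in CD8 libraries, a log2 fold change of 1.31 (SE 0.49, FDR 0.393). Pias1 was at 161 and 98.5 against 48.9 and 47.1 CPM, a log2 fold change of 1.44 (SE 0.56, FDR 0.428). Cish was lower in NK cells, at 53.3 and 118 against 246 and 239 CPM, with -1.51 (SE 0.51, FDR 0.32). Other differences of 1 or more in size, each with an SE above 1, were 2.04 for Socs6 (SE 1.47, FDR 0.649), 1.83 for Socs3 (SE 1.26, FDR 0.624), 1.44 for Socs5 (SE 1.92, FDR 0.892) and 1.19 for Socs2 (SE 1.33, FDR 0.851).

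Over the 3 genotypes the differences of Socs1, Pias1 and Cish kept their direction. The log2 fold change of NK against CD8 was 0.77 for Socs1 (SE 0.28, FDR 0.159), 0.97 for Pias1 (SE 0.32, FDR 0.124), -0.76 for Cish (SE 0.29, FDR 0.173) and 1.01 for Socs3 (SE 0.71, FDR 0.535) by edgeR. That of Usp18 was 1.88 (SE 0.74, FDR 0.189), and DESeq2 called it (adjusted p = 0.0320). In WT the mean of Usp18 was 278 CPM in NK and 280 in CD8 libraries, and the mutant levels were 7.82 to 69.0 CPM in NK and 0.147 to 12.8 in CD8 libraries. DESeq2 gave Pias1 an adjusted p of 0.0413 with a log2 fold change of 0.997, just under the size threshold. Without CD8 KE 1, the CD8 library with the highest Pias1 level, edgeR called Pias1 (log2 fold change 1.29, FDR 0.0490).

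No regulator was called by edgeR between the cell types, beside 0.776% of all genes in WT and 4.53% over the genotypes. At an unadjusted p below 0.05 there were 3 of 12 in WT (10.3% of all genes) and 4 of 12 over the genotypes (19.3%). DESeq2 called 0 in WT (6.20%) and 1 over the genotypes (11.9%). For none of the 12 were all 6 NK libraries on one side of all 6 CD8 libraries, which held for 4.93% of all genes. The regulators' median log2 fold change was 0.75 in WT and 0.65 over the genotypes, beside 0 and 0.02 for all genes, with 8 and 10 of 12 higher in NK cells.

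The 2 NK WT libraries and NK KO 1 were rich in myeloid markers, so in WT the cell type and a high marker sum cannot be told apart. The part of myeloid RNA in these differences was not tested. With the summed markers as a covariate, the WT difference was 0.53 for Pias1 (FDR 0.907), -0.81 for Cish (FDR 0.769) and 1.05 for Socs1 (FDR 0.701), and that of Usp18 was 2.25 (SE 1.56, FDR 0.718) in place of -0.01. Socs5 reversed, to -3.11 (FDR 0.712) from 1.44. Ptpn6 moved to -1.04 (FDR 0.605) from 0.08, and Ptpn2 to -1.29 (FDR 0.673) from -0.16. When the 3 libraries were left out and NK and CD8 were compared over KO and KE alone, an alternative added after the data were seen, the difference was 0.43 for Pias1, -0.19 for Cish and 0.47 for Socs1, while that of Usp18 was 3.25 (FDR 0.170). This setting drops all NK WT libraries, so the genotypes compared changed with it.

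**Figure D4:**
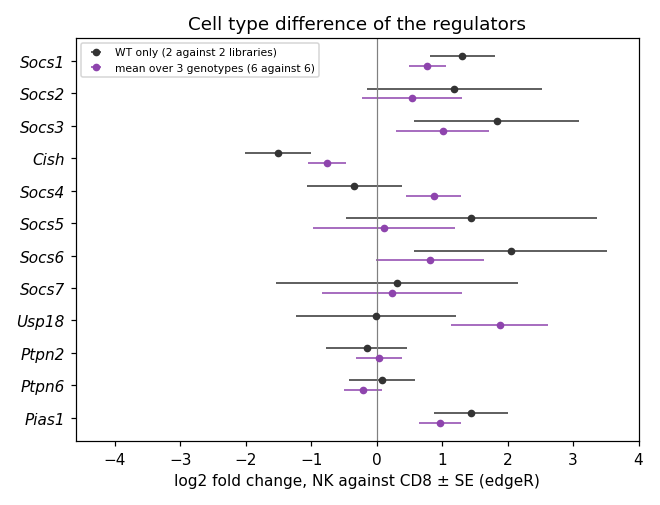
Log2 fold change of NK against CD8 T cells (points) with its SE (bars) from edgeR, in WT libraries alone and as a mean over the 3 genotypes. Socs1 and Pias1 lie above 0 and Cish below 0 in both, and Usp18 lies at 0 in WT and at 1.88 over the genotypes.

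Genes of 3 further lists were read beside the regulators. Of 7 other negative regulators (Pias2, Pias3, Pias4, Ptpn1, Ptpn11, Ptprc and Sh2b3), none was called between genotypes. Ptpn1, whose protein PTP1B dephosphorylates JAK2 and TYK2, stood at 198 and 181 CPM in NK WT, 68.0 and 80.7 in NK KO and 155 and 206 in NK KE. The NK KO libraries were below all other libraries, with a log2 fold change of -1.35 for KOvsWT (SE 0.38, FDR 0.589) and -1.28 for KOvsKE (SE 0.37, FDR 1). Pias4 was higher in NK than in CD8 T cells over the genotypes, at 2.09 (SE 0.66, FDR 0.106), and was called by DESeq2 (adjusted p = 0.00477).

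Among the STAT5 targets Pim1, Osm, Bcl2 and Il2ra, 2 of 4 were called by edgeR between the cell types over the genotypes (4.53% of all genes) and none between genotypes. Over the genotypes Il2ra, the IL-2 receptor alpha chain, was lower in NK than in CD8 T cells at -4.54 (SE 0.66, FDR 0.00281), and Bcl2, an inhibitor of apoptosis, was higher at 1.47 (SE 0.25, FDR 0.00675). Il2ra stood at 16.4 and 27.7 CPM in NK WT, at 0 and 0.441 in NK KO, at 3.12 and 5.86 in NK KE and at 36.5 to 110 in CD8 libraries. For the pooled mutants in NK cells its log2 fold change was -4.43 (SE 0.87, FDR 0.122), which DESeq2 called (adjusted p = 4.31e-06). Osm, the cytokine oncostatin M, was at 0.149 CPM and 0 counts in CD8 WT, and at 0.0769, 31.7, 28.6 and 33.0 in the 4 mutant CD8 libraries. DESeq2 called it for the pooled CD8 mutants (adjusted p = 0.000716) and edgeR did not (FDR 0.669, and 5.83e-05 without the filter on low counts). In NK cells it ran from 2.13 to 114 CPM.

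Of 42 other components of the pathway, 37 were tested and none was called between genotypes by edgeR. The list, which the study compiled from reviews, holds ligand receptors, JAKs, STATs and IRFs and a few others, such as Crebbp, Ep300 and Sh2b1. DESeq2 called 2 for the pooled mutants in NK and 5 in CD8 T cells (3.37% and 2.46% of all genes). At an unadjusted edgeR p below 0.05, 9 were lower and 0 higher in NK (9.01% of all genes), and 5 lower and 2 higher in CD8 T cells (6.75%). The list holds genes that myeloid cells also express, such as Il6ra, Csf3r and Irf8, and the myeloid marker sums given above moved with the NK groups; their part in the NK count was not tested. Irf7, the IFN regulatory factor that amplifies type I IFN production, followed the pattern of Usp18. NK WT libraries held 605 and 449 CPM and NK mutants 96.1 to 146, while CD8 WT libraries held 310 and 301 and CD8 mutants 18.5 to 100. Its log2 fold change for the pooled mutants was -2.18 in NK (SE 0.53, FDR 0.237) and -2.72 in CD8 T cells (SE 0.53, FDR 0.124) by edgeR, and DESeq2 called both. Stat2 and Il10ra were lower in the mutant CD8 libraries without overlap. Stat2 stood at 183 and 125 CPM in WT against 7.26 to 41.1, and Il10ra, the IL-10 receptor chain, at 547 and 436 against 26.2 to 130.

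As a description of likeness, log2 CPM over the 12 libraries was compared with that of 6747 genes with a mean of at least 20 CPM (6748 for Socs2), and the 3 genes with the highest Pearson r were taken, passing over any that is not reported here. The points are libraries of 2 cell types and 3 genotypes, so r reflects group differences as well as spread. For Usp18 they were Casp4 (0.94), Trim30d (0.93) and Trafd1 (0.92). For Socs1 they were Pctp (0.94), Dolk (0.93) and Sema4a (0.91), for Socs2 Sf1 (0.92), Mtfr1l (0.90) and Lap3 (0.89), for Socs3 Ino80d (0.92), Lpin1 (0.91) and Zdhhc12 (0.88), and for Cish Dynll1 (0.87), Atf1 (0.86) and Minos1 (0.86).

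Because SOCS genes are known targets of the factors they restrain, the promoters were searched for the motifs of these factors. The windows ran from 250 bases before to 50 after the annotated start (RefSeq, GRCm38.p6) and were found for 6 of the 12 genes: Socs1, Socs3, Socs4, Cish, Ptpn6 and Pias1. GAS, the element bound by STAT dimers, was searched as TTC, any 3 bases and GAA, which reads the same on both strands. The core of the IFN-stimulated response element (ISRE) was searched on both strands as GAAA, any 2 bases and GAAA. GAS was in 8.30% and the ISRE core in 3.44% of the 32851 windows of all genes. GAS was found in 2 of the 6 windows and the ISRE core in 1. The matches are shown for the 3 genes that hold one, with the motif in capitals and each sequence given 5′ to 3′ on the strand of its gene. Socs1 holds 2 overlapping ISRE cores that start 83 and 77 bases before the start (chr16:10785584-10785639, minus strand), Socs3 a GAS 154 bases before it (chr11:117969492-117969540, minus strand), and Cish 2 GAS in tandem, the first beginning on the start base itself (chr9:107296659-107296678, plus strand).
Socs1: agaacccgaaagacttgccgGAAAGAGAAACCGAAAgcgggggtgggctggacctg
Socs3: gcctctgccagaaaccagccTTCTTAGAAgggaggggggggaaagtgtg
Cish: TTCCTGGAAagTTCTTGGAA
No match in Socs4, Ptpn6 and Pias1 says only that these letters are not in the window. In the GENCODE annotation Cish begins at 107296026 and Socs3, on the minus strand, at 117970047, both upstream of the starts used here. By that annotation the Cish and Socs3 sites lie within the genes. Usp18 was lower in every mutant library, while Socs1 ran from 57.9 to 84.1 CPM over all NK genotypes and in CD8 T cells was higher in both KE libraries (58.1 and 79.0 CPM) than in WT (31.9 and 27.5). Socs3 and Cish overlapped between WT and mutant libraries.

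Where the genes lie bears on 3 of the values. In the GENCODE annotation of GRCm38, Usp18 (ENSMUSG00000030107, chromosome 6, 121245906 to 121270917, plus strand) shares exon bases with Gm44148, which had 0 to 67 counts per library. Cish (ENSMUSG00000032578, chromosome 9, 107296026 to 107302784, plus strand) shares exon bases with Gm17040 (0 to 134 counts) and Gm17041 (0 counts), and Ptpn6 with Gm20531 (0 to 72 counts). It is not stated whether the counting used strand or how it treated reads on shared bases, so the effect of these overlaps on the counts is not known. Socs1 (ENSMUSG00000038037, chromosome 16, 10782240 to 10785536, minus strand) and Socs3 (ENSMUSG00000053113, chromosome 11, 117966079 to 117970047, minus strand) share exon bases with no other gene.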

How the data were processed

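Poly(A) RNA of 300 sorted cells per library was amplified by Smart-seq2. The deposited counts are raw counts per gene, which the authors obtained from 50-base single-end reads with Trimmomatic, STAR (unique alignments) and summarizeOverlaps over exons on GRCm38. PCR copies are not marked by molecular identifiers, so counting floors cover counting error only. The 12 libraries were grouped by their labels. Counts were tested with edgeR 4.0.16 (quasi-likelihood, robust, TMM, one model over the 6 groups) with Benjamini-Hochberg FDR over 13279 genes and a mean normalized count of at least 10, and SE was taken from the F statistic. Calls were made at FDR below 0.05 with a log2 fold change of 1 or more in size. DESeq2 1.42.0, other scalings, no filter, one cell type alone, a replicate block, a myeloid covariate and omission of each library were alternatives. The test was checked on simulated counts with a smaller spread than these data and large planted changes between the cell types. That check therefore does not show the power or error of the genotype comparisons at the spread seen here. A fold change with SE is given for a regulator where its unadjusted p was below 0.05 or its log2 fold change was 1 or more in size (50 of 132 pairs). Regulators and lists were chosen with earlier results of these data known. Coordinates, exon lengths and overlaps come from GENCODE M21. Some listed genes are not reported here.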

Additional observations from a re-analysis of the deposited data

How the results depend on the processing

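The number of regulators called by edgeR was 0 in all 11 comparisons. DESeq2 called 1, Usp18, in 6 of them (NK KEvsWT, CD8 KOvsWT, CD8 KEvsWT, both pooled comparisons and NK against CD8 over the genotypes). Without the filter on low counts edgeR called 1, again Usp18, in those 6 and in NK KOvsWT and the difference between the cell types, and the cause was not tested. Leaving out each library gave 0 to 1 for NK against CD8 over the genotypes (1, Pias1, without CD8 KE 1) and 0 elsewhere. RLE scaling, library totals, each cell type alone, the myeloid covariate and, added after seeing the data, NK against CD8 without the 3 NK libraries rich in myeloid markers gave 0 called.

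Deviations of same-numbered libraries from their group means had an r of -0.02 to 0.04. With libraries this variable, such values cannot tell whether same-numbered libraries came from the same mouse. With the replicate block 0 regulators were called in every comparison. Usp18 in the pooled CD8 mutants was then at -6.15 (FDR 0.201).

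The log2 fold change of Usp18 kept its sign under all alternatives in each comparison of a mutant with WT, from -5.45 to -2.01 (NK KOvsWT), -6.22 to -3.50 (NK KEvsWT), -7.66 to -4.44 (CD8 KOvsWT) and -10.8 to -5.97 (CD8 KEvsWT). Of 1541 values over 82 fold changes, 1530 kept their sign. With the myeloid covariate Socs5 turned to 3.28 in NK KEvsWT, -0.84 in NK KOvsKE, -3.11 between WT cell types and 0.96 in the difference between cell types. Leaving out single libraries moved Socs5 in NK KOvsKE from -3.14 (without NK KO 1) to 4.23, and Usp18 in CD8 KOvsKE from -0.73 (without CD8 KO 2) to 5.49. It moved Socs3 from -3.01 to 0.10 (without NK WT 1) for the pooled NK mutants, from -3.05 to 0.065 (without NK WT 1) in the difference between cell types and from -0.20 (without NK KE 2) to 1.45 between cell types over the genotypes. Uba7 for the pooled NK mutants ran from -2.01 to 0.18 (without NK WT 1). Osm between cell types over the genotypes was 4.04 by DESeq2 and 3.98 by edgeR without the filter on low counts. Without the 3 NK libraries it was -1.13 by edgeR. With 2 libraries per group and a variation of 109%, the precision of each fold change is limited.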
